A study of Arabidopsis thaliana with 4 samples.

Results

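Class III peroxidases are secreted, haem-containing plant enzymes that work in the cell wall and the space around the cell. Genes were taken as members if their probe set named a single gene and its title held the word peroxidase, without the glutathione, ascorbate and thioredoxin peroxidases and the peroxiredoxins. Of 20341 genes on the array 68 were chosen in this way, each by a single probe set. By their titles 58 of them are peroxidases of class III. The other 10 only mention the word: 5 are haloperoxidase-related proteins, and the other 5 are the NADPH oxidase RBOHB, the calcium pump ECA3, the annexin ANNAT1, the galactosidase BGAL1 and the transcription factor OCP3. The rule also left out 3 root peroxidase genes by code (PER64, AT4G26010 and RHS19), and 6 probe sets that name 2 genes at once stood outside it. The label fits 58 of the 68, and "class III" below means those. All 58 carry the gene ontology term for the extracellular region in the deposited annotation, and 55 carry the term for hydrogen peroxide breakdown, against 1 of the 10 others.

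These enzymes use hydrogen peroxide to oxidise phenolic compounds. In this way they couple monolignols into lignin, cross-link wall proteins and phenolics and stiffen the wall, and in another cycle they can themselves produce reactive oxygen species. In roots, members of the family are known from the lignin ring of the endodermis (the Casparian strip), from xylem, from root hairs and from the reaction to wounding and microbes. Aluminium ions bind to the root cell wall and stop root growth in acid soil.

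The study measured root transcripts of Arabidopsis thaliana in wrky47-1, a mutant of the gene for the transcription factor WRKY47, and in the wild type. The plants were 4 weeks old and had grown in hydroponic culture, and they were moved for 6 h to 0.5 mM CaCl2 with 25 µM AlCl3 (Al) or without it (control). The 4 groups are wrky47 in Al, wild type in Al, wrky47 in control solution and wild type in control solution, with 1 array each. With no replicates, every value below is a difference between single arrays without a test, and the number of arrays limits the precision. The labels name the mutant as wrky47-1 without describing the allele, and they do not say how many plants made up a sample.

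Signals are given on the linear scale of the authors' summarised probe-set values. A gene counted as detected on an array if it was above that array's floor, the level that 40% of its gene probe sets lie under, which was at 75.1, 75, 79.1 and 81.1 on the wrky47 Al, wild-type Al, wrky47 control and wild-type control arrays. A difference is called measured where both arrays were above the floor, and "rose" and "fell" below stand for a measured log2 difference of at least 1 (2-fold) between 2 arrays. Probe sets differ in sensitivity, so signals are compared within a gene only. The summed signals of marker genes given below are an exception, and they follow mainly the brightest probe sets of each list. The probe set of WRKY47 itself read 24.1 in wrky47 Al and 27.5 in wrky47 control, both below the floor, against 203 in wild-type Al and 173 in wild-type control.

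Of the 58 class III genes 35 were detected on all 4 arrays, 6 on some of them and 17 on none. Over all 20341 genes 12223 were detected on all 4 arrays, a similar share. The 17 include peroxidase 36, known from the seed coat, peroxidase 40, known from anthers, and the root hair gene RHS18. Their signals lay between 15.2 and 57.3 over all arrays. Of the 10 other members 8 were detected on all arrays. PRXR1 had signals of 12206 in wrky47 Al, 13567 in wild-type Al, 14693 in wrky47 control and 15682 in wild-type control. It varied little between the arrays. Peroxidases 49, 30, 69 and 59, AT3G03670 and the annexin ANNAT1 also gave signals far above the floor on every array, which is no ranking of expression.

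The first comparison asked what Al did to wild-type roots. Of the 36 class III genes measured in both solutions 6 rose and 5 fell. Over all 12434 genes measured, 3.05% rose and 2.42% fell, 5.47% in all, while the 11 class III genes were 30.6% of those measured. None of the 9 other members measured moved by 2-fold, so the counts for all 45 members measured were also 6 and 5. The median log2 difference was 0.21 over class III genes, 0.09 over all members and -0.12 over all genes. The median size of the difference, without its sign, was 0.64 for class III genes and 0.26 for all genes. The family thus spread widely to both sides, with a median above that of all genes. After quantile normalization these 2 medians were 0.24 for class III genes and -0.04 for all genes. In wrky47 the counts were 6 higher and 6 lower among 36 class III genes measured (33.3%), against 3.42% higher and 1.97% lower over all 12465 genes measured (5.38% in all). The class III median there was -0.02, which became 0.02 after quantile normalization, the all-gene median was -0.07, and the median sizes were 0.64 and 0.23. Among the members outside class III, RBOHB fell as well (-1.23). Since the samples are whole roots, a lower share of the cells that express a gene and less transcript per cell cannot be told apart in any of these values.

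The genes that rose were led by a neighbouring pair on chromosome 1. PER4 (AT1G14540), a peroxidase known for early induction by microbial elicitors, lies at 4974232 to 4975600 on the minus strand in the deposited annotation, whose build the table does not name. Its neighbour peroxidase 5 (AT1G14550) lies at 4979027 to 4980324 on the plus strand, with no gene between them in the RefSeq gene table. PER4 had a signal of 409 in wrky47 Al and 587 in wild-type Al, against 92.5 in wrky47 control and 128 in wild-type control. Peroxidase 5 had 837 in wrky47 Al and 1179 in wild-type Al, against 194 in wrky47 control and 263 in wild-type control. For both genes both Al arrays were above both control arrays. The log2 difference of PER4 was 2.15 in wrky47 (4.42-fold) and 2.20 in wild type (4.59-fold), and that of peroxidase 5 was 2.11 and 2.16 for the same genotypes. They ranked 40 and 43 from the highest among all genes measured in wild type, and 51 and 53 in wrky47.

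Peroxidase 62 (AT5G39580), known from pathogen-treated tissue, had a signal of 3289 in wrky47 Al and 3533 in wild-type Al, against 781 in wrky47 control and 1250 in wild-type control. It rose in both genotypes, with log2 differences of 2.08 in wrky47 and 1.5 in wild type. The 2 Al signals were close to each other, and the control signal was lower in wrky47. PA2 (peroxidase 53, AT5G06720), an anionic enzyme that can polymerise lignin precursors in vitro, had 1050 in wrky47 Al and 987 in wild-type Al, against 427 in wrky47 control and 401 in wild-type control. Its log2 difference was 1.30 in each genotype. AT5G06730, which lies next to it on chromosome 5, stayed under 2-fold with 0.91 in wrky47 and 0.90 in wild type.

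The neighbours Prx37 (AT4G08770) and peroxidase 38 (AT4G08780) on chromosome 4 form another pair. Prx37 is known to dwarf the plant when overexpressed. Peroxidase 38 had 2940 in wrky47 Al and 3007 in wild-type Al, against 1879 in wrky47 control and 1421 in wild-type control. It rose in wild type (1.08) and stayed under 2-fold in wrky47 (0.65), where its control signal was higher. For Prx37 the differences were 0.45 in wrky47 and 0.64 in wild type. The other 2 genes that rose were peroxidase 12 (AT1G71695), with 1.13 in wrky47 and 1.08 in wild type, and peroxidase 11 (AT1G68850), which passed 2-fold in wrky47 only: its signal was 2162 in wrky47 Al and 1908 in wild-type Al, against 968 in wrky47 control and 1037 in wild-type control, differences of 1.16 and 0.88. That gap between the genotypes was 0.28 on the log2 scale and was not tested.

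**Figure D1:**
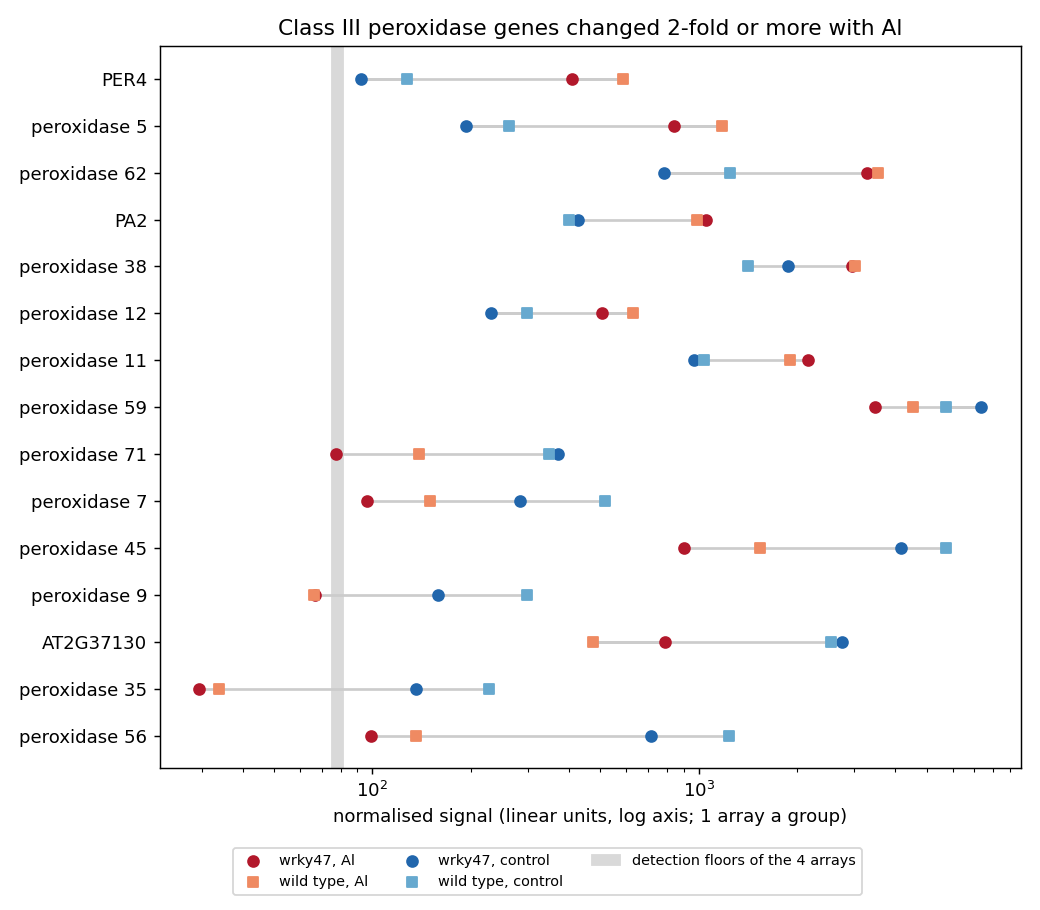
Signal on each of the 4 arrays (horizontal log axis, linear signal units) for the 15 class III genes that changed 2-fold or more with Al in at least 1 genotype, as a difference or a bound; circles are wrky47, squares wild type, red tones Al, blue tones control, and the grey band spans the detection floors. In PER4, peroxidase 5, peroxidase 62, PA2, peroxidase 38, peroxidase 12 and peroxidase 11 both Al points lie right of both control points, and in the 8 other genes both lie left of them.

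The genes that fell were led by peroxidase 56 (AT5G15180) on chromosome 5, at 4930560 to 4932211 on the plus strand in the deposited annotation. Its signal was 99.2 in wrky47 Al and 136 in wild-type Al, against 714 in wrky47 control and 1242 in wild-type control. The log2 difference was -2.85 in wrky47 and -3.19 in wild type, changes of 7.19-fold and 9.14-fold downward. It ranked 6 from the lowest of all genes measured in wrky47 and 2 from the lowest in wild type. AT2G37130, a peroxidase of the defence list, had 786 in wrky47 Al and 474 in wild-type Al, against 2756 in wrky47 control and 2543 in wild-type control. Both Al arrays were far below both control arrays, by -1.81 in wrky47 and -2.42 in wild type.

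Peroxidase 45 (AT4G30170) had 901 in wrky47 Al and 1538 in wild-type Al, against 4176 in wrky47 control and 5717 in wild-type control. The Al and control signals did not overlap, and the differences were -2.21 in wrky47 and -1.89 in wild type. Peroxidase 71 (AT5G64120), known to stiffen the wall when cell walls are damaged, had 77.4 in wrky47 Al and 139 in wild-type Al, against 371 in wrky47 control and 347 in wild-type control. Its differences were -2.26 in wrky47 and -1.32 in wild type, and the wrky47 Al signal lay just above the floor of 75.1. Peroxidase 59 (AT5G19890) passed 2-fold in wrky47 only, with 3481 in wrky47 Al and 4523 in wild-type Al, against 7352 in wrky47 control and 5719 in wild-type control, differences of -1.08 and -0.34.

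Peroxidase 71 stands in a row with peroxidases 70 and 69 on chromosome 5, all on the minus strand, at 25659550 to 25660946, 25654574 to 25655946 and 25650823 to 25652062, with no gene between them in the RefSeq gene table. The neighbours did not pass 2-fold with it. Peroxidase 69 (AT5G64100) had 5308 in wrky47 Al and 7624 in wild-type Al, against 4873 in wrky47 control and 5595 in wild-type control, differences of 0.12 and 0.45. Peroxidase 70 stayed near the floor on all arrays.

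The root hair list holds 4 genes with a probe set of their own, and 1 of them was measured with Al. Peroxidase 7 (AT1G30870) had 96.4 in wrky47 Al and 150 in wild-type Al, against 284 in wrky47 control and 515 in wild-type control, and fell in both genotypes (-1.56 in wrky47 and -1.78 in wild type). Peroxidase 35 (AT3G49960) was below the floor in Al, with 29.4 in wrky47 Al and 33.9 in wild-type Al, against 136 in wrky47 control and 228 in wild-type control. It was thus at least 1.81-fold lower in Al in wrky47 and at least 3.04-fold lower in wild type. The remaining 2, peroxidase 8 and RHS18, were below the floor on all 4 arrays. The deposited gene ontology term for the differentiation of root hair cells holds these 4 genes, RCI3 and peroxidase 57. With Al, peroxidase 57 was higher, by 0.63 in wrky47 and 0.71 in wild type. RCI3 was lower, by -0.91 and -0.69. The 4 marker genes of root hair cells (SHV2, EXPA7, EXPA18 and RHD6) had a summed signal of 212 in wrky47 Al and 251 in wild-type Al, against 341 in wrky47 control and 491 in wild-type control. RHD6 was below the floor on all arrays. The part of these markers in the results was not tested.

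Of the Casparian strip list, peroxidase 9 (AT1G44970) was below the floor in Al, with 66.5 in wrky47 Al and 66.1 in wild-type Al, against 159 in wrky47 control and 298 in wild-type control. It was at least 2.12-fold lower in Al in wrky47 and at least 3.97-fold lower in wild type. The 3 others stayed under 2-fold: RCI3, also known from cold and potassium shortage, differed by -0.91 in wrky47 and -0.69 in wild type, peroxidase 39 by -0.30 and -0.12, and peroxidase 72 by 0.43 and 0.50. The 4 endodermis markers CASP1, CASP2, SCR and ESB1 had a summed signal of 736 in wrky47 Al and 875 in wild-type Al, against 2691 in wrky47 control and 4826 in wild-type control. CASP1 fell in both genotypes (-2.73 in wrky47 and -3.41 in wild type), while SCR differed by -0.49 and -0.35. CASP2 was below the floor on both Al arrays, and the part of these markers in the result was not tested.

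The list of xylem and stem lignin peroxidases has 7 genes, all measured in wild type and 6 in wrky47. Only peroxidase 71 fell and none rose, in either genotype. It made up 16.7% of those measured in wrky47 and 14.3% in wild type. Of class III genes 16.7% and 13.9% fell. Over all genes 1.97% and 2.42% fell, and 3.42% and 3.05% rose. At these shares a count of 0 higher does not set the list apart from all genes. PRX52 (AT5G05340), which acts in the lignin of fibres, had 672 in wrky47 Al and 736 in wild-type Al, against 892 in wrky47 control and 602 in wild-type control. The differences, -0.41 in wrky47 and 0.29 in wild type, point opposite ways. AT4G33420 had 2658 in wrky47 Al and 2904 in wild-type Al, against 1970 in wrky47 control and 3063 in wild-type control, differences of 0.43 and -0.08. Peroxidase 66 differed by 0.35 in wrky47 and 0.63 in wild type, and peroxidase 25 by -0.22 and -0.29. AT2G22420 differed by -0.38 in wild type and was below the floor in wrky47 Al, at least 1.39-fold lower there. The 4 stele markers SKOR, PHO1, IRX3 and SUC2 had a summed signal of 2196 in wrky47 Al and 2920 in wild-type Al, against 3348 in wrky47 control and 3922 in wild-type control. In wild type their single differences with Al ran from -0.13 (SUC2) to -1.74 (SKOR). The part of these markers was not tested.

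The defence, wound and oxidative burst list was chosen, like the others, with earlier results of these data known, so its counts are a description. All 7 of its genes on probe sets of their own were measured. In wrky47, 3 rose (PER4, peroxidase 5 and peroxidase 62) and 2 fell (AT2G37130 and peroxidase 71), and the median was 0.65. In wild type the same 3 and peroxidase 38 rose, the same 2 fell, and the median was 1.08. Of all genes 5.38% passed 2-fold in wrky47 and 5.47% in wild type, and of class III genes 33.3% and 30.6%. Peroxidases 39, 40 and 57, whose genes UPBEAT1 represses in the growing root, gave no call: peroxidase 40 was not detected, and peroxidase 57 differed by 0.63 in wrky47 and 0.71 in wild type. The transcript of the repressor itself, UPB1, differed by 0.89 in wrky47 and 0.24 in wild type.

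The responses of the 2 genotypes come from different arrays. Over the 35 class III genes detected on all 4 arrays they ran in the same direction in 31 and in opposite directions in 4, with a Pearson correlation of 0.957 and a Spearman correlation of 0.952 across genes. Genes are no independent replicates, and this describes 4 arrays only. Over all 12223 genes detected on the 4 arrays 9744 ran in the same direction and 2473 in opposite directions, and the correlations were 0.879 and 0.781. The 2 sets of correlations are not at a like spread of responses. The median size was 0.64 in each genotype for class III genes, against 0.23 in wrky47 and 0.26 in wild type for all genes. A wider spread raises a correlation, so these values do not show a closer match in class III. In both genotypes 5 of the class III genes rose and 5 fell. In wrky47 6 rose and 6 fell, and in wild type 6 rose and 5 fell. Over all genes 300 rose and 170 fell in both genotypes, of 403 that rose and 240 that fell in wrky47, and 372 and 282 in wild type.

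**Figure D2:**
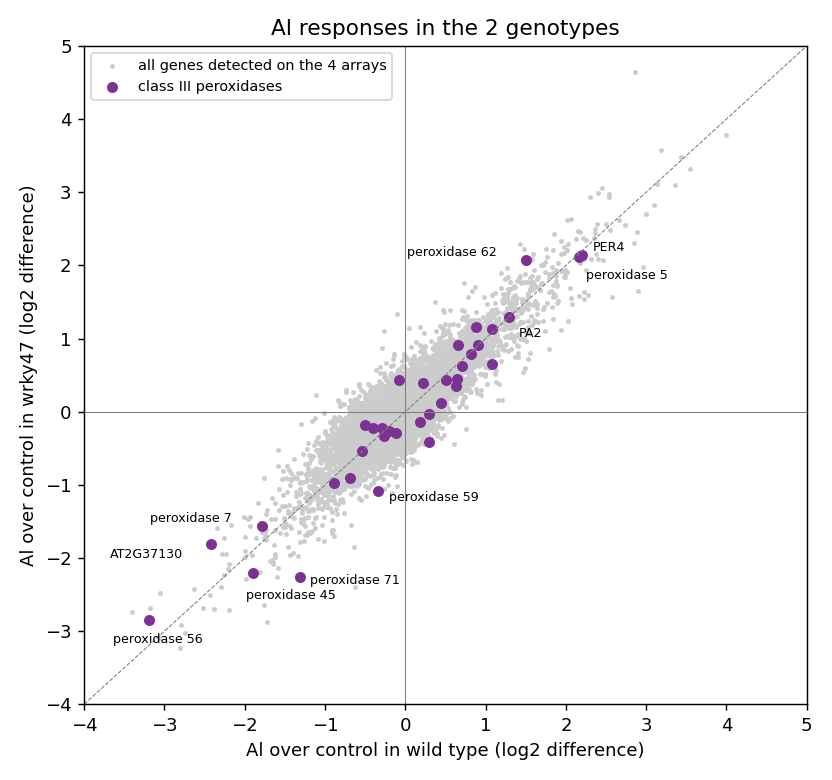
Log2 difference of Al over control in wrky47 (vertical axis) against wild type (horizontal axis) for the genes detected on all 4 arrays, with class III peroxidases in purple, all other genes in grey and the dashed line of equality. PER4 and peroxidase 5 lie near 2.1 on both axes, peroxidase 56 near the lower end, and peroxidase 71 sits below the line at -2.26 in wrky47 and -1.32 in wild type.

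The second question was whether wrky47 roots differed from wild-type roots in the absence of Al. None of the 38 class III genes measured in control solution, and none of the 47 members, differed by 2-fold. The background over 12602 genes was 0.309%, with 0.103% higher and 0.206% lower (13 and 26 genes, which became 19 and 19 after quantile normalization). At a background of 0.309% a count of 0 among 38 genes does not set class III apart from all genes. The median difference was -0.14 over class III genes and -0.05 over all genes. Below 0 were 25 of the 38 (65.8%), against 60.1% of all genes. The median size of the difference was 0.26 for class III genes and 0.14 for all genes.

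At 1.5-fold 6 of the 38 class III genes measured were lower in wrky47 and none higher, against 1.87% lower and 0.92% higher over all genes measured. Peroxidase 61 (AT5G24070), detected on the wild-type control array alone, stood outside this count: its signal was 38.9 in wrky47 Al and 48.6 in wild-type Al, against 46.3 in wrky47 control and 121 in wild-type control. The mutant control signal was at least 1.52-fold lower than that of wild type, and the wild-type signal was at least 1.61-fold lower in Al than in control solution. The 6 measured genes are peroxidase 9 (-0.90), peroxidase 7 (-0.86), peroxidase 56 (-0.80), peroxidase 35 (-0.74), peroxidase 62 (-0.68) and AT4G33420 (-0.64). Of these 6, 4 are also genes that were lower with Al, as differences or bounds, on arrays that share the wild-type control with this comparison. In the same solution the markers CASP1 (-1.04), CASP2 (-1.06), ESB1 (-0.83), SKOR (-1.08) and EXPA7 (-0.76) were lower in wrky47 too. Of the other measured markers of these cell types, IRX3 (-0.61), PHO1 (-0.38) and SHV2 (-0.31) were lower by less. The endodermis marker SCR (0.19) and the stele marker SUC2 (0.43) were higher. PER4 (-0.47), peroxidase 45 (-0.45) and peroxidase 5 (-0.44) were lower by less. The highest class III values were those of PRX52 (0.57), peroxidase 38 (0.40) and peroxidase 59 (0.36), and RBOHB, outside class III, stood at 0.51.

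In Al, none of the 36 class III genes and none of the 44 members measured differed by 2-fold between the genotypes, against a background of 0.341% of 12602 genes (0.23% higher and 0.111% lower). At a background of 0.341% a count of 0 among 36 genes does not set class III apart from all genes. The median difference was -0.14 for class III genes and 0.00 for all genes. Of the 36 class III genes 27 (75%) were below 0, against 49.3% of all genes. Class III medians stayed below 0 in both solutions as deposited and under the 3 other scalings. The median size was 0.18 for class III genes and 0.13 for all genes. At 1.5-fold 4 class III genes were lower in wrky47 and 1 was higher, against 1% lower and 1.36% higher over all genes. The lower ones were peroxidase 71 (-0.85), peroxidase 45 (-0.77), AT1G49570 (-0.66) and peroxidase 7 (-0.64), and the higher one was AT2G37130 (0.73). AT1G49570 had 1859 in wrky47 Al and 2930 in wild-type Al, against 2050 in wrky47 control and 2578 in wild-type control, so both wrky47 arrays were below both wild-type arrays.

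In some members that Al changed in opposite directions, wrky47 was below wild type in each solution. PER4 and peroxidase 5, which rose with Al, differed between genotypes by -0.52 and -0.49 in Al. Peroxidase 7, peroxidase 45 and peroxidase 56, which fell with Al, differed by -0.64, -0.77 and -0.45. Peroxidase 57, which did not pass 2-fold with Al, differed by -0.51 in Al and -0.44 in control solution. Peroxidase 27 showed -0.44 and -0.36 in the same order. Not all members that passed 2-fold with Al were lower in wrky47. AT2G37130, which fell with Al, was above wild type by 0.73 in Al and 0.12 in control solution. PA2, which rose, was above it by 0.09 in each. Peroxidase 71, which fell, was below wild type in Al (-0.85) and above it in control solution (0.10).

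**Figure D3:**
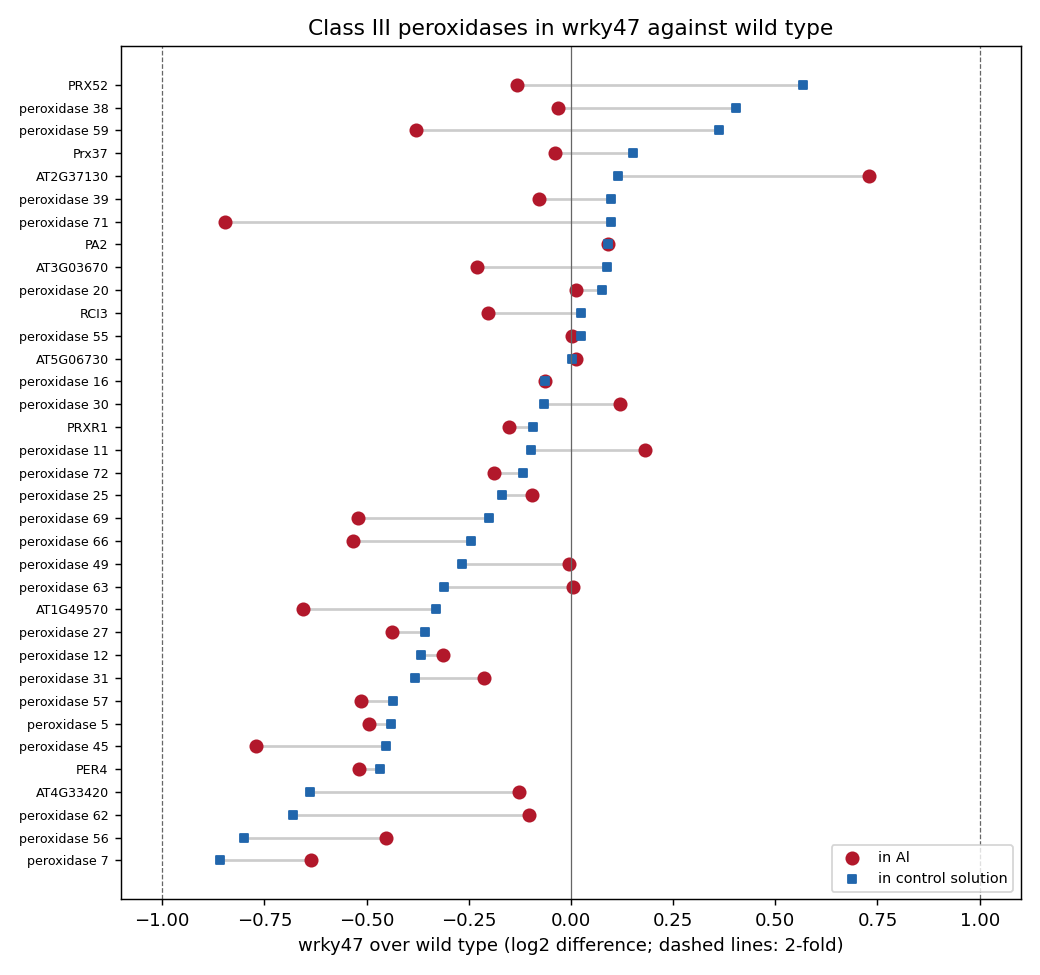
Log2 difference of wrky47 over wild type (horizontal axis) for the 35 class III genes detected on all 4 arrays, in Al (red circles) and in control solution (blue squares), sorted by the value in control solution; dashed lines mark 2-fold. All points lie inside the 2-fold lines, and peroxidase 71, PRX52 and peroxidase 59 have the widest gaps between their 2 points.

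The last comparison took the Al response in wrky47 minus that in wild type. No class III gene reached 2-fold among the 35 detected on all arrays, against 0.188% of 12223 genes (0.131% higher and 0.0573% lower, 16 and 7 genes, which became 10 and 11 after quantile normalization), and the medians were -0.05 for class III genes and 0.05 for all genes. At a background of 0.188% a count of 0 among 35 genes does not set class III apart from all genes. Peroxidase 71 was closest to 2-fold at -0.94, the 12th lowest of all genes. It passed 2-fold under each of the 3 other scalings. Its wrky47 Al signal was near the floor. Peroxidase 59 (-0.74), PRX52 (-0.70) and peroxidase 38 (-0.44) followed below 0. AT2G37130 (0.61), peroxidase 62 (0.58), AT4G33420 (0.51) and peroxidase 56 (0.35) were highest.

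Partner enzymes of the wall and of hydrogen peroxide were set beside the family. Laccases oxidise monolignols with oxygen instead of peroxide. Of 15 laccase genes 11 were measured in each genotype, 3 rose and none fell, against 3.42% higher and 1.97% lower over all genes in wrky47, and 3.05% and 2.42% in wild type. LAC1 had 801 in wrky47 Al and 680 in wild-type Al, against 268 in wrky47 control and 152 in wild-type control, differences of 1.58 and 2.16. LAC16 rose by 1.54 in wrky47 and 1.46 in wild type, and LAC5 by 1.06 and 1.32. The 3 that rose were 27.3% of the laccases measured. At these background shares a count of 0 lower among 11 genes does not set the laccases apart from all genes. Of class III genes 16.7% fell in wrky47 and 13.9% in wild type, and the laccases were not tested against them.

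NADPH oxidases make the superoxide that becomes hydrogen peroxide outside the cell. Of 10 genes 8 were measured in wrky47 and 7 in wild type. RBOHB fell in wrky47 (-1.23) and stayed under 2-fold in wild type (-0.78), and AT4G11230 differed by -0.94 in wrky47 and was at least 2.27-fold lower in wild type, where its Al signal was below the floor. AT1G19230 differed by 0.50 in wrky47 and 0.86 in wild type. The ascorbate peroxidases, which remove peroxide inside the cell, had 4 of 7 genes measured, and the glutathione peroxidases 6 of 8, and none of either reached 2-fold. Of all genes measured 5.38% did in wrky47 and 5.47% in wild type. At these shares a count of 0 among so few genes sets neither family apart from all genes. APX5 came closest among the ascorbate peroxidases (-0.51 in wrky47 and -0.56 in wild type), and GPX3 among the glutathione peroxidases (-0.63 and -0.70). Among regulators, MYB15, an activator of defence-related lignin genes, rose by 2.25 in wrky47 and 1.98 in wild type. MYB36, which switches on Casparian strip genes, differed by -0.43 in wrky47 and -0.36 in wild type.

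**Figure D4:**
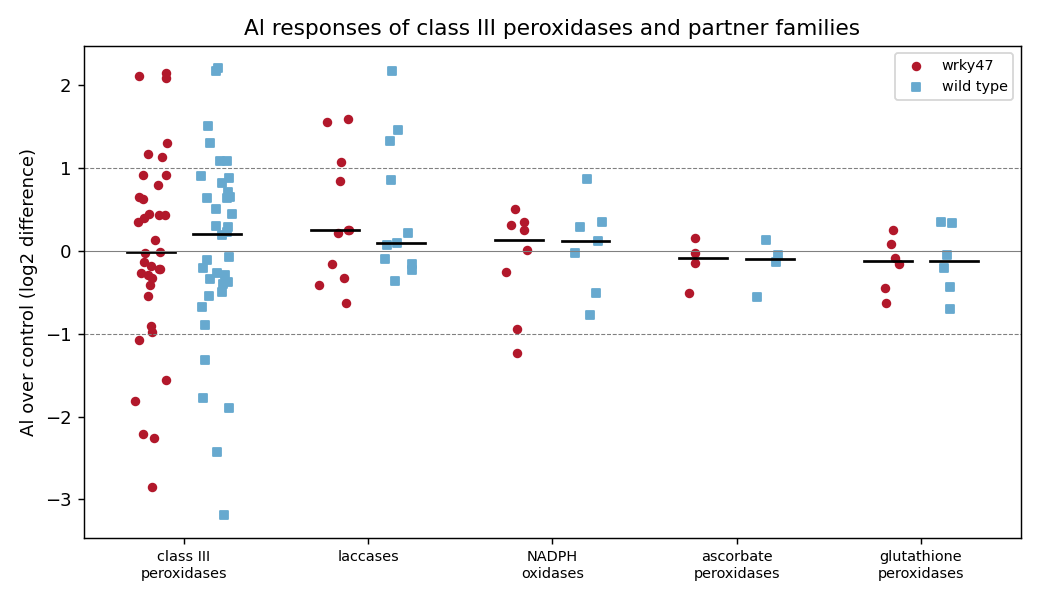
Log2 difference of Al over control (vertical axis) for the measured genes of class III and 4 partner families, wrky47 as red circles and wild type as blue squares, with bars at the medians and dashed lines at 2-fold. Class III points reach past 2-fold on both sides, the 3 laccases past it lie above, and the ascorbate and glutathione peroxidases stay inside the lines.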

How the data were processed

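RNA of 4 root samples, 1 per genotype and solution, was used for hybridisation to the arrays. The labels give the dye as Cy3. The authors deposited normalized log2 signals per probe set, and a second set of deposited columns repeats them as intensity on a linear scale. MAS5 is named in the submitters' processing notes without version. Neither background correction nor scaling is described there. Of 22746 gene probe sets 20550 name 1 gene. Signals were read, and log2 differences taken, with pandas 2.3.3 and numpy 2.4.6. The computation was tested on simulated data. A gene was measured in a comparison when above the 40th percentile of its arrays, and a gene above it on just 1 array got a bound, its bright signal divided by the floor of the other array. Genes were named by rule: those past 2-fold, the 4 highest and 4 lowest of each comparison, the 6 brightest, measured genes of the 5 role lists, and up to 3 per partner list. AT1G49570, peroxidase 57 and peroxidase 27 in the genotype comparisons were also picked after their values were seen. A search for genes of similar pattern was not made, since 4 arrays are too few. Members, lists and rules were chosen with earlier results of these data known. Alternatives, given in the closing section, covered scaling, filter, offset, probe-set averaging and threshold.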

Additional observations from a re-analysis of the deposited data

Results flagged for a closer look

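Some class III genes pointed in opposite directions in the 2 genotypes or the 2 solutions, with a gap of at least 0.5 on the log2 scale. With 1 array a group none of these gaps was tested. AT4G33420 differed with Al by 0.43 in wrky47 and -0.08 in wild type, a gap of 0.51. PRX52 (AT5G05340) differed with Al by -0.41 in wrky47 and 0.29 in wild type, a gap of -0.70. The same 4 signals give its difference of wrky47 from wild type, -0.13 in Al and 0.57 in control solution, with the same gap of -0.70. Peroxidase 59 (AT5G19890) differed between wrky47 and wild type by -0.38 in Al and 0.36 in control solution, a gap of -0.74. Peroxidase 71 (AT5G64120) showed -0.85 in Al and 0.10 in control solution, a gap of -0.94, with a wrky47 Al signal of 77.4 beside a floor of 75.1.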

How the results depend on the processing

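The 6 higher and 5 lower members of the Al comparison in wild type, and the 6 higher and 7 lower in wrky47, were the same counts under quantile normalization, centring, scaling to the 75th percentile, an offset and the mean of probe sets (no member has more than 1). The 24 single-member differences past 2-fold kept their direction and stayed past it in all 158 recomputations in which they were measured. Only the 3 scalings and the offset could move these values. A changed filter or the mean of probe sets leaves a member's difference as it was, so those recomputations are no check. Differences that the stricter filter left unmeasured were not counted. The difference of the responses gained 1 lower member, peroxidase 71, under each of the 3 scalings, and 1 higher member with no filter. With no filter 1 member was lower in wrky47 in control solution (0.295% of all genes called). Both calls with no filter are peroxidase 61, detected on 1 array. The filter at the 60th percentile left 33 members in each Al comparison and 7 calls in each: 4 higher and 3 lower in wrky47, and 5 higher and 2 lower in wild type, against 4.55% and 4.42% of all genes called. A 1.5-fold threshold gave 20 calls with Al in wrky47 and 22 in wild type, 6 between genotypes in control solution, 5 in Al and 4 for the difference of the responses, against 15.8%, 16.9%, 2.79%, 2.36% and 2.98% of all genes in the same order. At 3-fold there were 7 in wrky47 and 6 in wild type, against 1.77% and 1.57% of all genes. Leaving out the 10 members that are not class III by title, an alternative chosen after seeing the data, moved the median with Al in wild type to 0.21. Over all genes the scalings changed the split of calls: quantile normalization gave 431 higher and 243 lower with Al in wild type (379 and 301 as deposited). No paired analysis was possible because each comparison here sets 1 array against 1. The deposited array names carry the number 1 for wrky47 control and wild-type Al, and 2 for wrky47 Al and wild-type control. These numbers were not used in any comparison. Genes near the floor, such as peroxidases 71 and 70, are limited by signal over background.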

Other observations

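Probe sets that name 2 peroxidase genes at once were outside the members, and their genes cannot be told apart. The probe set of the root hair genes AT1G05240 and AT1G05250 had a signal of 125 in wrky47 Al and 244 in wild-type Al, against 628 in wrky47 control and 1085 in wild-type control, log2 differences of -2.33 in wrky47 and -2.15 in wild type. That of AT3G49110 and AT3G49120 (PRXCB), known from the oxidative burst of defence, had 5655 in wrky47 Al and 3940 in wild-type Al, against 2176 in wrky47 control and 1777 in wild-type control, differences of 1.38 and 1.15. Both wrky47 arrays were below the wild-type arrays of the same solution for the root hair pair and above them for PRXCB. The probe set of AT4G37520 and AT4G37530 differed by 1.35 in wrky47 and 1.27 in wild type.

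In the deposited gene ontology terms, 8 class III genes carry response to nitrate (RCI3, peroxidases 16, 27, 45, 57, 69 and 71, and AT4G33420). This grouping was picked after the values were seen. Their median difference with Al was -0.73 in wrky47 and -0.61 in wild type. Between wrky47 and wild type in Al all 8 were below 0, with a median of -0.48, where 75% of all measured class III genes were below 0. In control solution 6 of the 8 were below 0, with a median of -0.28, where 65.8% of measured class III genes were below 0.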
